A study of Mus musculus with 17 samples.

Results

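The 9 genes described here encode the class II major histocompatibility complex (MHC) and the proteins that assemble, load and switch it on: H2-Aa, H2-Ab1, H2-Eb1, Cd74, Ciita, H2-DMa, H2-DMb1, H2-DMb2 and H2-Oa. They were chosen by name, not by their values, from the 30406 gene identifiers shared by all 17 single-cell RNA libraries of the series. Each was followed in every library and in every cell class, in leukocytes and in cells of other kinds, and compared between treatments and tissues.

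Class II molecules are surface heterodimers that show peptides from endocytosed proteins to CD4+ T cells. The α chain H2-Aa pairs with the β chain H2-Ab1, and H2-Eb1 is the β chain of the other mouse class II molecule. Cd74, the invariant chain, holds the new dimer and leads it to the endosome. H2-DMa with H2-DMb1 or H2-DMb2 exchanges the remnant of Cd74 for peptide, and H2-Oa is a chain of H2-O, which restrains H2-DM. Ciita is the coactivator on which transcription of these genes depends. Dendritic cells, macrophages and B cells are known for constitutive class II, and interferon-γ induces Ciita in many other cell types, tubular epithelium and endothelium among them.

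The mice were 8 weeks old and carried PDGFRb-Cre with the Z/EG reporter, so that cells with a history of Cre activity made GFP, and GFP+ cells were sorted after Liberase digestion. SARATg mice also carried, at Rosa26, a CAG-driven human ZFYVE9 cDNA behind a lox-stop-lox cassette, which Cre activates to overexpress SARA, an adaptor of the TGF-β receptor, while SARAWT mice did not. Skin came from mice injected subcutaneously with bleomycin (20 mg/kg) or PBS 3 times a week for 2 weeks, giving 3 SARAWT bleomycin, 3 SARAWT PBS, 1 SARATg bleomycin and 1 SARATg PBS library. Kidney came from mice injected intraperitoneally with aristolochic acid (5 mg/kg), a plant nephrotoxin, or vehicle 3 times a week for 3 weeks, giving 3 SARAWT aristolochic acid, 3 SARAWT vehicle, 2 SARATg vehicle and 1 SARATg aristolochic acid library. The Cre is constitutive and also acts in leukocytes, so GFP does not by itself mark a pericyte, and T cells made up 3.06% to 57.2% of the kidney libraries.

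The 8 skin libraries held 3355217 to 69765525 unique molecular identifiers (UMIs, each standing for 1 captured mRNA) and 776 to 6203 kept cells. The 9 kidney libraries held 28660151 to 137093834 UMIs and 4623 to 10664 kept cells. Some libraries went against their labels or stood apart. The library labelled skin SARAWT PBS 3 had Zfyve9 at 620 counts per 1000000 UMIs (CPM), above both SARATg skin libraries (314 and 226), and the library labelled SARAWT PBS 1 had the human ZFYVE9 entry at 845 CPM against 89.3 to 190 in the other libraries with that entry. Zfyve9 was 165 CPM in the kidney library labelled SARAWT aristolochic acid 1 and 20.4 in the library labelled SARATg aristolochic acid 1, against 89.6 and 88.9 in SARATg vehicle. The library labelled SARAWT vehicle 3 held 18.2% proximal tubule cells and 44.0% T cells, against 84.4% and 75.3% proximal tubule cells and 3.06% and 3.89% T cells in vehicle 1 and 2. The SARAWT aristolochic acid libraries held 50.4%, 42.6% and 57.2% T cells. No gene was used to check the treatment labels, and whether that of vehicle 3 is right was not tested. Skin SARAWT PBS 2, the smallest library, had 55.5% of its barcodes in common with other skin libraries, against 22.1% in SARAWT bleomycin 2, 17.6% in bleomycin 1, 7.38% in PBS 1 and under 1% in the other 4. The main comparisons were repeated without the libraries that went against their labels and vehicle 3, without each library in turn and without cells with shared barcodes. The labels number the replicates without saying that each is a separate animal, so that p-values measure the spread between these libraries, which may be technical.

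Of the 9 genes, 7 lie within 224335 bases of mouse chromosome 17. The class II promoters share short boxes that the RFX, CREB and NF-Y factors bind and that Ciita is recruited to. The stretches before the annotated start sites are shown for members on chromosome 17 because H2-Aa, H2-Eb1, H2-DMb1 and H2-DMb2 followed H2-Ab1 across cell classes (correlations of 0.848 to 0.996), and H2-Oa, which followed it less (0.619), stands beside them. Sequences are from RefSeq, build GRCm38.p6, 5′ to 3′ on the gene's strand. Capitals mark GATTGG, the core of the Y box, or its reverse complement CCAATC, and AACNGATG, one part of an X box. These letters were chosen after the sequences had been read.

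H2-Aa (chr17:34287843-34287932, minus strand): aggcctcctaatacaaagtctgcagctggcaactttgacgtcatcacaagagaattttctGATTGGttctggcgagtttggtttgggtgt
H2-Eb1 (chr17:34305747-34305837, plus strand): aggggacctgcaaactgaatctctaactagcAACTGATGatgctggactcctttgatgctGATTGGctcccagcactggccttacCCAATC
H2-DMb1 (chr17:34153069-34153158, plus strand): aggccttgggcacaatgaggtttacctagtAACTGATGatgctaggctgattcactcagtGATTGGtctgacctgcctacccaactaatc
H2-DMb2 (chr17:34145098-34145187, plus strand): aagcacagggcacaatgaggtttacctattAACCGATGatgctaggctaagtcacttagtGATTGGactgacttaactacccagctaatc
H2-Oa (chr17:34092275-34092364, plus strand): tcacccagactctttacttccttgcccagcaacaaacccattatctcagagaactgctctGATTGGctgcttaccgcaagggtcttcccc

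The GATTGG core stood 44 to 91 bases before the annotated start in these 5 genes. H2-DMa had 2 promoter entries, of which the internal one held the core, 199 bases before its start. H2-Ab1, Cd74 and Ciita are named only. Over 32851 windows of 250 bases before annotated starts, 14.6% held GATTGG on either strand, 1.98% held AACNGATG and 0.25% held both. Both were present in H2-Eb1, H2-DMb1 and H2-DMb2, with 21 bases between the boxes in the first and 22 in the other two. H2-DMb1 and H2-DMb2 are near-identical neighbours whose reads may be shared, so their separate values are uncertain. Transcripts that overlap H2-DMa, H2-Eb1, H2-Oa and Ciita, most on the other strand, could add to or take from their counts.

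Cell classes were clusters named from marker genes, and neither the 9 genes nor H2-Ob and H2-Eb2 were used for clustering or naming. In skin, the β chain H2-Ab1 was highest in type 2 dendritic cells, at 13395 ± 1840 CPM (SD, n = 8), followed by type 1 dendritic cells at 12042 ± 924 and macrophages at 5809 ± 1406. Mature dendritic cells, at 5651 ± 1604 (n = 7), and plasmacytoid dendritic cells, at 2207 ± 866 (n = 6), came next. All other named skin classes had means under 1000 CPM, and among unnamed clusters one led by Retnla and Lyz1 had 8638 CPM and one led by Igkc and Igha, with a median depth of only 726 UMIs, had 9000 CPM. Noncanonical pericytes, the study's name for pericyte clusters without the usual markers Cspg4, Mcam and Nes, here clusters with Col1a1, Col3a1 and Dcn among their markers, had 168 CPM of H2-Ab1 and canonical pericytes 137. The paper allows that innate fibroblasts may be among its noncanonical pericytes. No separate fibroblast class was set here, and the markers of this class also include Pdgfra, Lum, Dpt and Pi16, so the name does not exclude fibroblasts. The canonical pericyte mean was carried by SARATg PBS 1, with 160 H2-Ab1 UMIs in 29 cells, against 1 to 8 UMIs in each other library. T cells, which in the mouse do not make class II, had 125 ± 62.8 (n = 7), ranging from 67.0 to 242. The levels in pericytes and in T cells overlapped across libraries.

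In kidney, H2-Ab1 was highest, among named classes, in macrophages, at 9632 ± 3239 CPM (SD, n = 9), and in type 1 dendritic cells, at 9248. B cells had 2678 ± 632 and monocytes 934 ± 563 (n = 8). Among cells that are not leukocytes, endothelial cells had 381 CPM and proximal tubule cells 280, against 94.5 in principal cells, 50.9 in the thick ascending limb and 46.4 ± 27.9 in T cells. Cd74 was also highest in skin type 2 dendritic cells (35118 CPM) and in kidney macrophages (29795), but in skin its mean was higher in mature dendritic cells (19090) than in macrophages (14519). It averaged 928 in proximal tubule cells and 1081 in kidney endothelial cells.

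**Figure D1:**
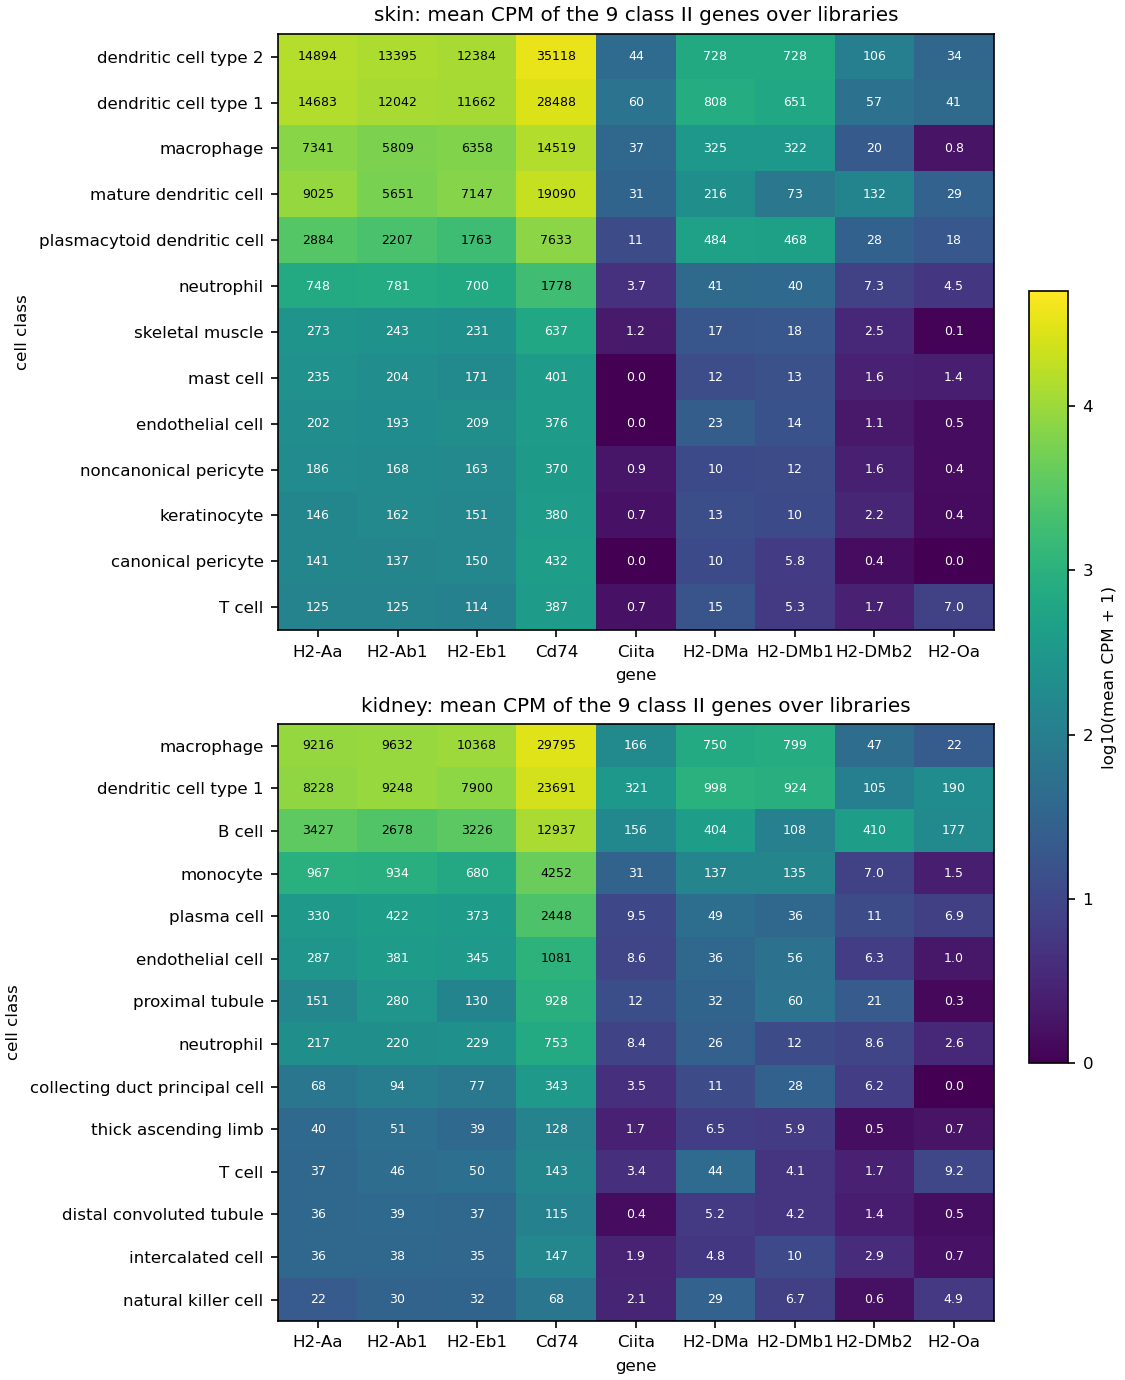
Mean level of each of the 9 genes (columns) in each named cell class (rows) of skin and kidney, as log10(mean CPM + 1) over the libraries with at least 10 cells of the class. H2-Aa, H2-Ab1, H2-Eb1 and Cd74 are high in dendritic cells, macrophages and B cells and lower in every other class, with H2-Ab1 at 13395 CPM in skin type 2 dendritic cells and 125 CPM in skin T cells.

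Ciita, the coactivator, averaged 321 CPM in kidney type 1 dendritic cells, 166 in kidney macrophages and 156 in B cells. In skin it averaged 59.8 in type 1 dendritic cells and 36.5 in macrophages. No UMI of Ciita was found in skin endothelial cells, where a count of 0 allows up to 1.98 CPM, in canonical pericytes (up to 2.89) or in mast cells (up to 2.31); these limits cover counting error only. H2-Oa averaged 190 CPM in kidney type 1 dendritic cells and 177 in B cells, and less than 1 CPM in skin macrophages. H2-DMb2 was highest in B cells, at 410 CPM, with a range of 224 to 604 over 9 libraries, while H2-DMb1 averaged 108 CPM there.

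Levels in neighbouring classes of the order were compared within libraries by a two-sided exact sign-flip permutation test of the log2 ratio. None of the 12 neighbouring pairs of skin or the 13 of kidney passed the adjusted threshold of 0.05 for H2-Ab1 or for Cd74. The order was set from the same values. A single pair at its smallest possible p could not pass once adjusted over the pairs of its tissue. These tests therefore do not show that neighbouring classes were alike. The smallest p that 8 libraries allow is 0.0078, and it was reached for H2-Ab1 in skin type 1 dendritic cells over macrophages, higher in 8 of 8 libraries by 1.10 on the log2 scale (exact permutation test, adjusted p = 0.0938). Type 2 exceeded type 1 dendritic cells in 5 of 8 libraries (exact permutation test, adjusted p = 0.394).

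Over the skin libraries, type 2 dendritic cells carried 50.7% ± 13.3 of all H2-Ab1 UMIs (SD, n = 8) and macrophages 20.6%. Noncanonical pericytes carried 0.343% of them while holding 16.9% of all UMIs. In kidney, macrophages carried 58.8% ± 10.0 of H2-Ab1 UMIs (SD, n = 9) and B cells 4.98%. Proximal tubule cells carried 5.44% and held 47.6% of all UMIs, with a range of 1.37% to 19.2% over libraries.

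Shares of cells with a Cd74 UMI were computed after thinning every cell to 1000 UMIs, since depth differed between classes. They were 99.7% in skin type 2 dendritic cells, 92.5% in skin macrophages and 95% in kidney macrophages. Noncanonical pericytes had 15% (53.0% unthinned, median depth 11213 UMIs) and skin T cells 17.9% (57.9% unthinned, median depth 6532). T cells are a class that should lack the protein. By mean, the pericyte share was below that of T cells for Cd74 and above it for H2-Ab1 (10.8% against 7.55%), H2-Aa (8.88% against 6.20%) and H2-Eb1 (8.92% against 6.22%), with wide spread over libraries. The Cd74 share of pericytes was above that of T cells in bleomycin 1 (20.0% against 19.4%) and bleomycin 2 (35.7% against 17.1%) and below it in the other libraries with both classes. Kidney T cells had 8.13% (21.8% unthinned, median 3032) and proximal tubule cells 30.6% (53.5% unthinned, median 9341). By library, the tubule share ran from 2.17% to 81.4% and the T cell share from 2.66% to 17.4%. In vehicle 1 and 2 the tubule share was 2.17% and 2.59%, below the T cell shares of 2.85% and 3.13%. In vehicle 3 it was 53.7% against 12.1%, and in the 3 SARAWT aristolochic acid libraries 61.1%, 39.7% and 81.4% against 9.02%, 8.38% and 17.4%. The H2-Ab1 share was low in both classes of vehicle 1 and 2, at 1.78% and 1.88% in tubule cells and 1.16% and 1.31% in T cells.

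Across the 43 clusters and classes of both tissues, the 10 genes outside the 9 whose pattern was most like that of H2-Ab1 were Cd86, Aif1, Ctss, Ly86, Plbd1, Pld4, Fgd2, Irf5, Naaa and Lacc1. Their Pearson correlation with H2-Ab1 on the log2 scale ran from 0.904 for Cd86, a costimulatory ligand, to 0.837 for Lacc1. Among the 9, H2-Aa and H2-Eb1 each had 0.996, Cd74 0.991, H2-DMa 0.939, H2-DMb1 0.928, Ciita 0.851, H2-DMb2 0.848 and H2-Oa 0.619. These are descriptions over classes that share libraries.

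The first comparison was between tissues, in the libraries labelled SARAWT PBS and SARAWT vehicle. Over the class as a whole, kidney macrophages had more of the class II genes than skin macrophages, from the coactivator through the chains to the peptide exchanger. Of the 9 genes, 7 were lower in skin and none higher, against 11.9% of all 10512 genes called lower. The median of the 9 was -1.56 on the log2 scale, against -0.01 over all genes. Tissue here cannot be told apart from the route of injection or the Cell Ranger version.

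Ciita was 31.5, 71.2 and 18.6 CPM in PBS skin macrophages and 320, 234 and 76.5 in vehicle kidney macrophages. The groups did not overlap, with a log2 change of -2.46 ± 0.59 (SE, n = 3 and 3, edgeR adjusted p = 0.0167). Cd74 was 13280, 17736 and 7915 CPM in skin and 38956, 37160 and 30022 in kidney, a change of -1.48 ± 0.30 (edgeR adjusted p = 0.00867). For Cd74, too, every kidney library lay above every skin library. How many of all genes separated the groups in this way was not counted, here or in the comparisons below.

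H2-Ab1 differed by -1.19 ± 0.33 (edgeR adjusted p = 0.0299) and H2-Eb1 by -1.09 ± 0.36 (adjusted p = 0.0499). The peptide exchanger chains H2-DMa and H2-DMb1 differed by -1.56 ± 0.30 and -1.80 ± 0.32. H2-Oa, the chain of the H2-DM inhibitor, had 6, 0 and 6 UMIs in the 3 skin libraries and 29, 99 and 134 in the kidney libraries. Its log2 change was -4.73 ± 0.70 (edgeR adjusted p = 0.0027). H2-Aa (-0.73, adjusted p = 0.158) and H2-DMb2 (-1.96, adjusted p = 0.132) did not pass. Without the libraries labelled PBS 1 and PBS 3 and without vehicle 3, 4 of the 9 were lower, against 8.58% of genes, and the median was -1.10, but that leaves 1 skin library, PBS 2, which is assumed to vary like the 2 kidney libraries. Leaving out PBS 1 alone or vehicle 1 alone also left 4.

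**Figure D2:**
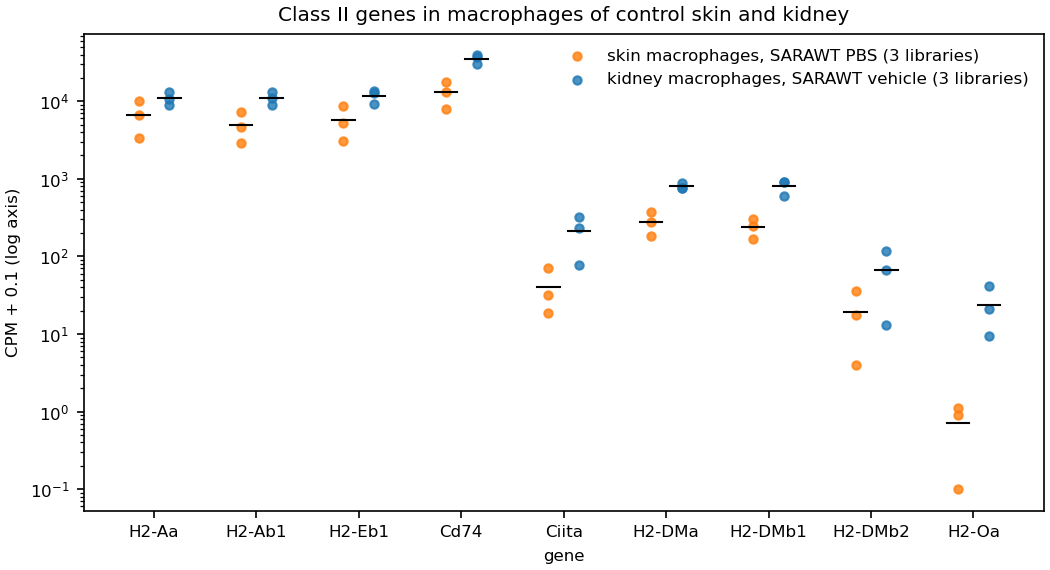
Level of each gene in macrophages (CPM + 0.1, log axis) in the 3 skin SARAWT PBS and 3 kidney SARAWT vehicle libraries, 1 point a library and a line at each mean. The 2 tissues do not overlap for Ciita, Cd74, H2-Ab1, H2-Eb1, H2-DMa, H2-DMb1 and H2-Oa, each higher in kidney. The share of all genes without overlap was not counted.

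The other genes of the pathway did not all follow. The counts below stand against 27.9% of all 10512 genes called in this comparison, 1678 higher in skin and 1250 lower. Of the interferon-γ list, Socs1 (2.62), Jak2 (2.22), Irf1 (1.58) and Jak1 (0.90) were higher in skin macrophages and the receptor chain Ifngr1 (-1.20) was lower, so 5 of 7 differed. Of the enhanceosome list, Creb1 (1.43) and Nfya (1.05) were higher and the other 5 did not pass. Among the lysosomal proteases, Ctsl, Ctsb and Lgmn were higher in skin by 2.46, 1.61 and 1.28, and Ctsh and Ctss were lower by -1.32 and -1.11. Of the surface list, Cd83, which slows class II turnover, was higher by 2.96, with Cd274 (2.63) and Cd80 (2.36), and Marchf1, the ligase that drives that turnover, was lower (-1.67). H2-Ob, the partner chain of H2-Oa, was lower by -2.61.

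RNA of other cells also moved with tissue. The proximal tubule genes Kap, Miox and Slc34a1 had no UMI in skin macrophages while Kap averaged 554 CPM in kidney macrophages. Of the macrophage list itself, C1qb and C1qa were lower in skin, as were 4 of the 7 leukocyte genes, and the B cell gene Cd79b by -2.40. Of all genes, 11.9% were called lower. The clusters of the class also differed. Over all libraries of each tissue, cluster 8 of the skin macrophages had mean Ciita at 128 CPM and H2-Ab1 at 7961, while clusters 0 and 3 had Ciita at 25.4 and 30.7. Of the kidney macrophage clusters, cluster 6 had Ciita at 134 CPM and H2-Ab1 at 7867, and cluster 11 had 192 and 14542. Skin cluster 8 was thus close to kidney cluster 6 in Ciita and H2-Ab1, but its mean Cd74 was lower, at 14052 against 24543 CPM. The part of other cells' RNA and of cluster makeup in the class II difference was not tested.

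Type 1 dendritic cells, which cross-present to CD8+ T cells, had genes called in both directions, 6 of 9. The chains H2-Aa, H2-Eb1 and H2-Ab1 were higher in skin, by 0.98, 0.78 and 0.52, against 16.3% of genes called higher. Ciita (-2.27 ± 0.32, edgeR adjusted p = 0.000248), H2-Oa (-2.05) and H2-DMb2 (-1.17) were lower, against 12% of genes called lower. Ciita there was 75.3, 49.7 and 52.5 CPM in skin and 398, 436 and 212 in kidney, with no overlap. Cd74 (0.49), H2-DMa (-0.06) and H2-DMb1 (-0.25) did not pass. Without vehicle 3 there were 4 higher and 2 lower, and without PBS 1, PBS 2 or PBS 3 there were 2 and 2.

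Endothelial cells were lower in skin for 4 of the 5 genes tested, against 5.51% of genes called lower: Cd74 by -3.22, H2-Ab1 by -2.94, H2-Eb1 by -2.78 and H2-Aa by -2.36. H2-Ab1 was 83.3, 49.5 and 33.0 CPM in skin endothelium and 389, 215 and 749 in kidney endothelium. The macrophage genes C1qb, C1qa and Apoe were also higher in kidney endothelial cells, 3 of the 4 tested. When endothelial cells with leukocyte RNA were left out, 0 of 4 genes passed in edgeR, 1 had an unadjusted p under 0.05 and the median was -1.04, and 0 of 6 passed when predicted doublets were kept. Leaving out 1 library gave 2 to 5 genes lower. T cells went the other way, with H2-Aa (2.66), Cd74 (2.46) and H2-Ab1 (2.31) higher in skin, 3 of 6 against 19.3% of genes. That fit rests on only the libraries labelled PBS 1 and PBS 3 for skin, DESeq2 called 0 of 9, and with a per-cell marker gate or a coarser clustering none was higher and 1 was lower. Leaving out PBS 1 or PBS 3 leaves 1 skin library, whose spread is then taken from the kidney libraries alone, so those fits do not decide the T cell calls. In neutrophils 0 of 4 passed in edgeR, with 23.3% of genes called. Over all kept cells of a library 0 of 9 passed, with 41.1% of 16569 genes called.

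Bleomycin was compared with PBS in SARAWT skin, to ask whether the class II programme shifts in inflamed, fibrosing dermis. In macrophages none of the 8 genes tested passed in edgeR or DESeq2, with 0% of 10832 genes called by edgeR, and 1 had an unadjusted p under 0.05. Their median change was 0.38 on the log2 scale, against -0.02 over all genes. H2-Ab1 was 4646, 7308 and 2910 CPM after PBS and 6202, 6915 and 6131 after bleomycin, so that the groups overlapped. H2-DMb1 was the exception, at 243, 300 and 169 after PBS and 408, 435 and 333 after bleomycin, with no overlap, a change of 0.82 ± 0.25 and an edgeR adjusted p of 0.389. The single SARATg libraries had H2-Ab1 at 6382 CPM after PBS (exact 95% Poisson interval 6276 to 6489) and 5975 after bleomycin (5926 to 6024), and with 1 library each there is no test. Without PBS 2 the median was 0.76 and 5 of 8 had an unadjusted p under 0.05, and against PBS 2 alone, without the libraries labelled PBS 1 and PBS 3, the median was -0.04. The type 1 and type 2 dendritic cells had median changes of -0.02 and -0.14.

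In noncanonical pericytes, where class II RNA was far scarcer than in macrophages, the mean of each gene tested was higher after bleomycin, without passing the test. H2-Aa was 185, 92.4 and 91.2 CPM after PBS and 258, 329 and 450 after bleomycin. The groups did not overlap, and the change was 1.52 ± 0.31 (SE, n = 3 and 3, edgeR adjusted p = 0.0665). H2-Eb1 (1.5, edgeR adjusted p = 0.0945), H2-Ab1 (1.32, adjusted p = 0.109) and H2-DMb1 also had no overlap. The share of all genes without overlap was not counted. Cd74, at 534, 210 and 171 after PBS and 440, 584 and 834 after bleomycin, overlapped (1.06, edgeR adjusted p = 0.191).

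Of the 6 genes tested here, 0 were called by edgeR, with 0.00974% of 10267 genes called. All 6 had an unadjusted p under 0.05, as had 2255 of the 10267 genes. The median of the 6 was 1.38 against -0.03 over all genes. DESeq2 called 3 higher, H2-Aa, H2-Eb1 and H2-Ab1, against 2.8% of genes called higher. With the replicate number as a block, edgeR called only H2-Aa higher (adjusted p = 0.04997), against 1.89% of genes. Against PBS 2 alone, without the libraries labelled PBS 1 and PBS 3, the median was 1.74. The single SARATg libraries had Cd74 at 51.8 CPM after PBS (95% Poisson interval 48.4 to 55.3) and 139 after bleomycin (133 to 146). Without the cells holding leukocyte RNA, described next, the order was reversed, at 45.3 CPM after PBS and 22.1 after bleomycin.

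Leukocyte RNA moved with these values. The summed leukocyte list was 124, 92.4 and 103 CPM after PBS and 200, 321 and 376 after bleomycin in the same cells, with no overlap and with Tyrobp at 1.83 (edgeR adjusted p = 0.0605) and Fcer1g at 1.75 (adjusted p = 0.0535). When the 703 of 2950 cells that held a UMI of Ptprc, Tyrobp, Fcer1g, Laptm5 or Coro1a were left out, H2-Aa was 43.1, 78.7 and 15.4 after PBS and 43.4, 99.7 and 24.9 after bleomycin. The groups then overlapped, the median of the 4 genes still tested was 0.37, and none had an unadjusted p under 0.05 in edgeR. By replicate number, which the labels do not call a pairing, H2-Aa was still higher after bleomycin in 3 of 3 pairs, though nearly equal in pair 1. So were H2-Ab1 (46.1, 75.8 and 26.5 CPM, then 70.7, 120 and 35.4) and Cd74 (75.3, 182 and 34.2, then 78.7, 217 and 41.1), and H2-Eb1 was higher in 2. The share of all genes higher in 3 of 3 pairs was not counted. With the replicate number as a block in the same cells, edgeR called 0 of 4, against 4.27% of genes called, with a median of 0.28. H2-Ab1, at 0.60 ± 0.19, then had an unadjusted p under 0.05 (edgeR adjusted p = 0.103). The values were also uneven within the class, and the libraries filled its clusters differently. Cd74 averaged 1806 CPM in cluster 11, led by the melanocyte genes Dct and Mlana beside Dcn, and 61.0 in cluster 10, for which bleomycin 1 held too few cells. In cluster 11, which all 8 libraries filled, Cd74 was 7094, 1292 and 438 CPM after PBS and 625, 745 and 3922 after bleomycin, and the groups overlapped.

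**Figure D3:**
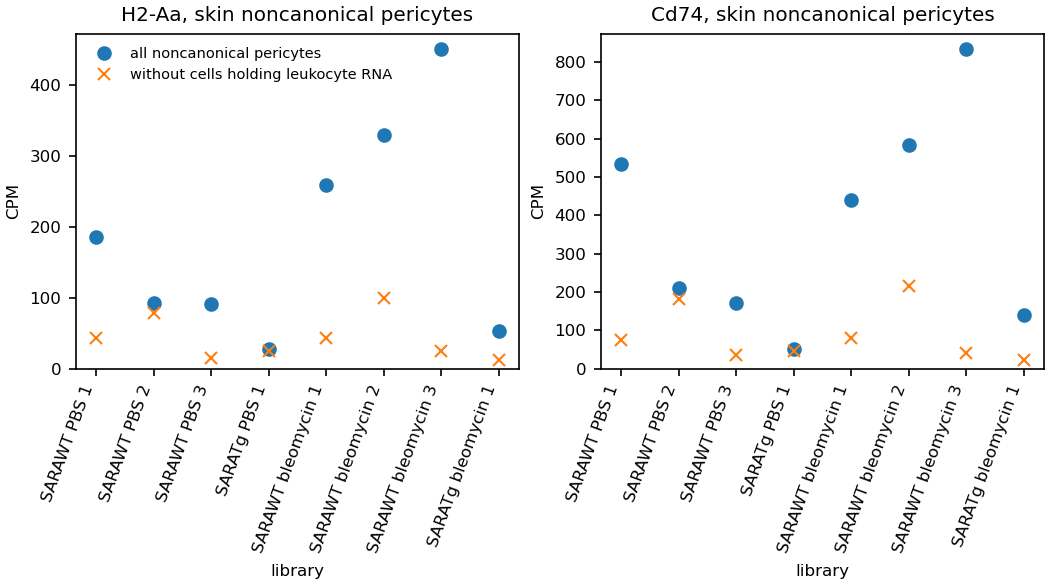
H2-Aa (left) and Cd74 (right) in skin noncanonical pericytes (CPM) in each of the 8 libraries, 1 mark a library, with all cells of the class (circles) and without cells holding leukocyte RNA (crosses). H2-Aa separates the SARAWT groups with all cells (91.2 to 185 against 258 to 450 CPM) and overlaps without the cells holding leukocyte RNA (15.4 to 78.7 against 24.9 to 99.7).

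In the other 10 named skin classes together, 0 of 53 tests of a class II gene passed in edgeR, with 0.324% of all tests called, and 11 had an unadjusted p under 0.05. The share of all tests at that level was not counted over these classes. T cells after bleomycin had H2-Aa at -1.52, H2-Eb1 at -1.28, Cd74 at -1.22 and H2-Ab1 at -0.98, none called, and no overlap between 2 PBS and 3 bleomycin libraries. The 2 are those labelled PBS 1 and PBS 3, which went against their genotype labels, so treatment here cannot be told apart from that. With the replicate number as a block, these 4 genes were called lower by edgeR, against 1.25% of genes, on 1 residual degree of freedom. Skeletal muscle cells had a median of -2.34 over 4 genes, each with an unadjusted p under 0.05, as had 1020 of all 6783 genes. In that class Cd74 was 2171 CPM in the library labelled PBS 1 and 57.7 and 102 in PBS 2 and 3. Summed, the 9 genes were 4632.5, 404 and 279 CPM after PBS and 348, 495 and 291 after bleomycin. The groups overlapped, and among these SARAWT libraries only PBS 1 was high. The single SARATg libraries had 4428 CPM after PBS and 506 after bleomycin, so that SARATg PBS 1 was about as high. The summed leukocyte list was also highest in PBS 1, at 1131, 86.5 and 102 CPM after PBS and 221, 146 and 131 after bleomycin.

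Aristolochic acid was compared with vehicle in SARAWT kidney, to ask how the same genes behave in kidneys given a tubular toxin. Over the macrophage class as a whole, all 9 genes had the lower mean after aristolochic acid, none was called, and within its 2 largest clusters the groups overlapped for Cd74. H2-Ab1 was 13352, 10931 and 8958 CPM in vehicle and 8795, 6168 and 5315 after aristolochic acid. Cd74 was 38956, 37160 and 30022 in vehicle and 28408, 20496 and 17061 after aristolochic acid. Neither gene overlapped between groups, and the share of all genes without overlap was not counted.

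The changes were -0.74 ± 0.22 for H2-Aa, -0.73 ± 0.23 for H2-Ab1, -0.71 ± 0.22 for H2-Eb1 and -0.70 ± 0.21 for Cd74 (SE, n = 3 and 3). In edgeR each had an adjusted p of 0.722, and 0% of 10945 genes were called. Ciita was 320, 234 and 76.5 CPM in vehicle and 106, 80.4 and 115 after aristolochic acid, and overlapped (-1.05 ± 0.44). Over the 9 genes the median was -0.71 against 0.00 over all genes, and DESeq2 also called none. In edgeR 6 of the 9 had an unadjusted p under 0.05, as had 746 of all 10945 genes. The SARATg libraries had H2-Ab1 at 15323 and 7648 CPM in vehicle and at 10197 (95% Poisson interval 10142 to 10252) in the single library labelled SARATg aristolochic acid 1.

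The library labelled vehicle 3 decided these calls. Without it, Ciita (-1.44, edgeR adjusted p = 0.0137), H2-Oa (-2.43, adjusted p = 0.0404) and H2-Eb1 (-0.83, adjusted p = 0.0473) were lower, 3 of 9 against 5.58% of genes called lower. Without vehicle 3 and the library labelled aristolochic acid 1, 6 of 9 were lower against 3.56% of genes, with a median of -1.0. In the fit without vehicle 3, the lysosomal proteases Ctsd (2.91), Ctsl (1.93), Ctsb (1.02) and Lgmn (0.84) were higher, 4 of 6 against 5.71% of genes called higher, while H2-Ob was lower (-2.44). Socs1, an inhibitor of interferon signalling, rose by 2.54, Cd40 by 2.46 and the lysozyme gene Lyz2 by 1.66, and Cd86 fell by 0.88. RNA of other cells moved with these values. The summed B cell list was 418, 382 and 162 CPM in vehicle 1 to 3 and 123, 229 and 165 after aristolochic acid, so that vehicle 1 and 2 lay above the others, and in the fit without vehicle 3 its genes Cd79b (-2.25) and Ighm (-1.13) were lower, while Cd79a, at 3.27, did not pass. The summed macrophage list was 27612, 33705 and 65717 CPM in vehicle and 56695, 77083 and 57478 after aristolochic acid, with Lyz2 the only 1 of its 5 genes called. H2-Oa and Ciita are high in B cells (means of 177 and 156 CPM), and the part of either list in these calls was not tested. B cells and type 1 dendritic cells were also compared. H2-Ab1 in B cells was 3096, 1814 and 3555 CPM in vehicle and 3195, 3033 and 2498 after aristolochic acid, and in type 1 dendritic cells 8935, 8439 and 11510 in vehicle and 10077 and 8711 in the 2 aristolochic acid libraries with enough cells. Over the 9 genes, type 1 dendritic cells had a median of 0.08 in edgeR, with none at an unadjusted p under 0.05. The macrophage class held 4 clusters, and the libraries filled them differently. In cluster 11, with the highest mean H2-Ab1 (14542 CPM), Cd74 was 42634, 42447 and 60175 CPM in vehicle and 60482, 47281 and 46184 after aristolochic acid, so that the groups overlapped and vehicle 1 and 2 were the lowest. In cluster 6 (mean H2-Ab1 7867 CPM), it was 28168, 21272 and 31467 in vehicle and 32083, 19208 and 16856 after aristolochic acid, and the groups overlapped. Clusters 31 and 39, with mean H2-Ab1 at 5674 and 6009 CPM, held too few cells of vehicle 1 and 2 for a value. The part of cluster makeup in the difference over the whole class was not tested.

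**Figure D4:**
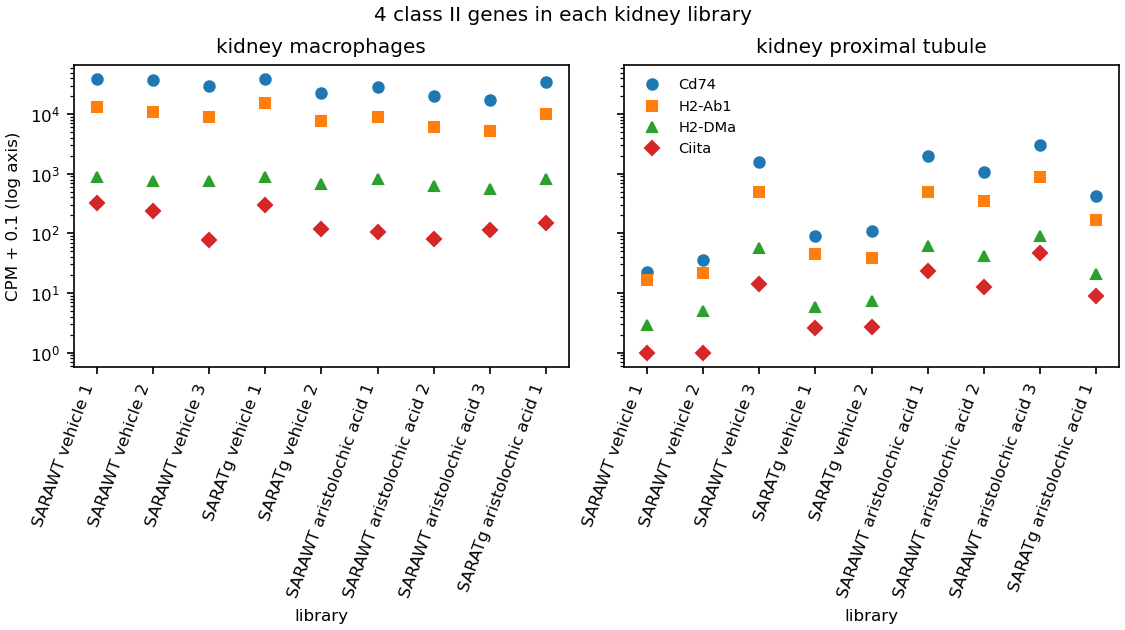
Levels of Cd74, H2-Ab1, H2-DMa and Ciita (CPM + 0.1, log axis) in kidney macrophages and proximal tubule cells for each of the 9 libraries, grouped by genotype and treatment, 1 point a library. In macrophages H2-Ab1 lies between 8958 and 13352 CPM in SARAWT vehicle and between 5315 and 8795 after aristolochic acid, and in proximal tubule cells vehicle 3 (499 CPM) lies among the aristolochic acid libraries (346 to 891) and above vehicle 1 and 2 (16.5 and 21.2).

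Proximal tubule cells, the epithelium that takes up aristolochic acid, had a wide range of class II RNA. Cd74 was 22.6 and 35.4 CPM in vehicle 1 and 2, 1593 in vehicle 3, and 1973, 1059 and 3050 after aristolochic acid. H2-Ab1 was 16.5, 21.2 and 499 in vehicle and 496, 346 and 891 after aristolochic acid. Ciita was 0.87, 0.87 and 14.1 in vehicle and 23.1, 12.4 and 46.1 after aristolochic acid. For each of these genes, vehicle 1 and 2 were low, and the library labelled vehicle 3 was at or near the aristolochic acid libraries.

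With all 6 libraries, 0 of 8 genes passed in edgeR or DESeq2, 0% of 12641 genes were called by edgeR, and none had an unadjusted p under 0.05. All 8 changes were positive, with a median of 1.67 against -0.02 over all genes. Cd74 had a change of 1.67 ± 1.5 and Ciita of 2.20 ± 1.17. Without vehicle 3, 7 of 8 were higher, against 3.38% of genes called higher, and the median was 4.82. Cd74 then rose by 5.93 ± 0.54 (edgeR adjusted p = 0.0202), H2-Ab1 by 4.74 ± 0.44 (adjusted p = 0.0202) and Ciita by 4.73 ± 0.57 (adjusted p = 0.0277), while H2-DMb1, at 3.51, had an adjusted p of 0.064. Without vehicle 3 and the library labelled aristolochic acid 1, none was called, on 2 libraries a group, with the median again at 4.82 and all 9 genes then tested at an unadjusted p under 0.05.

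The SARATg vehicle libraries had tubule Cd74 at 91.5 and 109 CPM, and the library labelled SARATg aristolochic acid 1 had 417 (95% Poisson interval 407 to 428). Over the class, both SARATg vehicle values lay above vehicle 1 and 2 and below the SARAWT aristolochic acid libraries. H2-Ab1 followed the same order, at 44.9 and 38.2 in SARATg vehicle and 164 in that library. Within the clusters described next the order of the SARATg libraries was another, with Cd74 at 156 and 235 CPM in vehicle and 148 after aristolochic acid in cluster 3, 223 and 365 and then 319 in cluster 4, and 692 and 762 and then 625 in cluster 15.

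An interferon-γ target had a like order of libraries. Irf1, a transcription factor that interferon-γ induces, was 1.06, 2.04 and 27.8 CPM in vehicle 1 to 3 and 28.5, 16.2 and 65.2 after aristolochic acid in proximal tubule cells. The groups overlapped, with vehicle 3 among the aristolochic acid libraries. With all 6 libraries 0 of the 7 genes of the list passed in edgeR, and 2 had an unadjusted p under 0.05. Without vehicle 3, Irf1 (4.37) and Socs1 (3.9) were higher, 2 of 7, with Ctss (3.97), Cd40 (6.56), Cd274 (3.11) and H2-Eb2 (6.62) from the other lists. The enhanceosome list had 0 of 7 called, 1 at an unadjusted p under 0.05 and a median of -0.04.

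Leukocyte RNA moved with them. Ptprc, the leukocyte antigen CD45, was 1.55, 2.29 and 11.9 CPM in vehicle and 24.6, 11.1 and 37.8 after aristolochic acid in these cells. Without vehicle 3, 5 of the 7 leukocyte genes (Ptprc, Cd52, Coro1a, Lyz2 and Laptm5) and 4 of the 5 macrophage genes were higher, 0 of 4 B cell genes were called with all 4 at an unadjusted p under 0.05, and 0 of 4 proximal tubule genes were called with 2 at that level. Tubule cells with leukocyte RNA were 4.08%, 5.82% and 24.7% of the class in vehicle 1 to 3 and 32.0%, 19.3% and 50.4% after aristolochic acid. When these 3266 of 27828 cells were left out, Cd74 was 21.3, 29.7 and 1662 CPM in vehicle and 2014, 1063 and 3190 after aristolochic acid. These levels were close to those with all cells, and the median of the 8 genes was 1.76 with none called. In the cells left, all 5 genes of the macrophage list still had positive changes. Their median was 1.63, as with all cells of the class. The 2 leukocyte genes still tested had a median of 2.29, and no gene of either list was called. The part of such RNA in the class II values was not tested. Cd74 per UMI of leukocyte RNA was 1.66 to 11 in tubule cells and 0.479 to 1.48 over all cells, higher in tubule cells in 9 of 9 libraries. In macrophages, which make both, the same ratio was 0.561 to 2.52, and the tubule ratio was above it in 6 of 9 libraries and below it in vehicle 1, vehicle 2 and SARATg vehicle 1.

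The makeup of the class differed between libraries, and several tubule clusters were made mostly of cells of 1 to 3 libraries. In each of the 3 tubule clusters that every library filled, vehicle 1 and 2 were below vehicle 3 and the SARAWT aristolochic acid libraries. In cluster 3, with Gsta2 and Miox among its leading genes, Cd74 was 32.0, 43.5 and 791 CPM in vehicle and 1178, 705 and 1924 after aristolochic acid. In cluster 4, led by Gpx3, Slc13a1 and Slc34a1, it was 53.0, 96.9 and 1763 in vehicle and 2286, 1125 and 2972 after aristolochic acid. In cluster 15, whose leading genes Gdf15, Cryab and Spp1 are known from injured tubule, it was 1014, 736 and 3628 in vehicle and 3805, 1879 and 4218 after aristolochic acid. Cluster 15 thus had Cd74 in vehicle 1 and 2 well above clusters 3 and 4 of the same libraries.

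**Figure D5:**
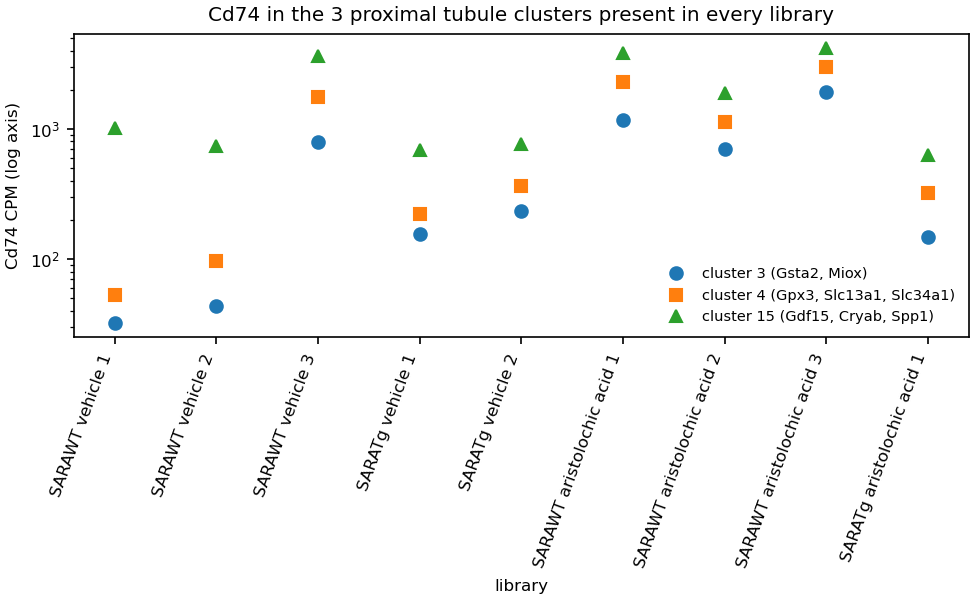
Cd74 level (CPM, log axis) in the 3 proximal tubule clusters that hold cells of all 9 libraries, 1 point a library. In each cluster SARAWT vehicle 3 (791, 1763 and 3628 CPM) lies with the SARAWT aristolochic acid libraries, and in cluster 15 vehicle 1 and 2 (1014 and 736) lie above their own values in clusters 3 and 4.

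In the other 12 named kidney classes together, 0 of 72 tests passed in edgeR, with 0% of all tests called, and 9 had an unadjusted p under 0.05. The share of all tests at that level was not counted over these classes. Intercalated cells, with 938 of all 7141 genes at that level, had 4 of 4 class II genes at it, with a median of 3.15. Their Cd74 was 3.50, 22.2 and 26.4 CPM in vehicle and 542, 93.9 and 176 after aristolochic acid, with no overlap. Their summed leukocyte list did not overlap either, at 47.2, 108 and 161 CPM and then 188, 982 and 481, and without cells holding leukocyte RNA Cd74 was 4.05, 23.2 and 35.5 in vehicle and 140, 50.8 and 87.4 after aristolochic acid. The distal convoluted tubule, with 1197 of all 7636 genes at an unadjusted p under 0.05, had 3 of 4 class II genes there, with a median of 1.58. Without vehicle 3, the thick ascending limb had 3 of 3 genes higher, against 1.28% of genes: Cd74 by 3.43, H2-Eb1 by 3.14 and H2-Ab1 by 2.88. The distal convoluted tubule then had 3 of 4 higher, against 3.29% of genes: H2-Aa by 2.27, H2-Eb1 by 2.09 and Cd74 by 1.90. Leukocyte RNA moved with both of these classes. The summed leukocyte list in the thick ascending limb was 25.6 and 34.6 CPM in vehicle 1 and 2 and 97.5, 140 and 1192 after aristolochic acid, and in the distal convoluted tubule 35.0 and 19.6 and then 200, 94.6 and 591. Cd74 per UMI of leukocyte RNA was below that of all cells in 7 of 7 libraries in the thick ascending limb and above it in 1 of 9 in the distal convoluted tubule. Without cells holding leukocyte RNA, Cd74 in the thick ascending limb was 8.80, 17.04 and 30.03 CPM in vehicle and 97.1, 37.5 and 110 after aristolochic acid. The groups did not overlap, vehicle 3 included. Even with all cells of the class, aristolochic acid 2 held only 3 Cd74 UMIs in 17 cells. Its place above vehicle 3 without cells holding leukocyte RNA thus rests on very few UMIs. With all cells, vehicle 3 held 151 Cd74 UMIs in 31 cells, against 22 in 38 in aristolochic acid 1 and 183 in 86 in aristolochic acid 3. In edgeR with vehicle 3 and all cells, 1 of the 3 genes tested had a positive change, and the median was -0.30. In the distal convoluted tubule without cells holding leukocyte RNA, Cd74 was 7.62, 10.9 and 36.2 in vehicle and 32.0, 58.5 and 62.9 after aristolochic acid, and vehicle 3 overlapped. With all cells, Cd74 in the distal convoluted tubule was 23.8, 13.6 and 36.9 CPM in vehicle and 30.5, 53.7 and 81.4 after aristolochic acid. In kidney T cells Cd74 was 41.8, 35.4 and 285 CPM in vehicle and 208, 132 and 243 after aristolochic acid, with vehicle 3 the highest. Of the unnamed clusters tested, 1 had a class II gene called, Cd74 in cluster 45, which held 158 cells and was led by the haemoglobin genes Hbb-bs and Hba-a1. Its Cd74 was 52.7 and 41.2 CPM in vehicle 1 and 2 and 8114 and 885 in aristolochic acid 2 and 3 (3.65 ± 1.13, edgeR adjusted p = 0.00871), with 31.4% of its 421 genes called. Its summed leukocyte list was 659 and 124 CPM in vehicle and 10708 and 12095 after aristolochic acid.

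The SARA transgene was tested in vehicle kidney, 2 SARATg against 3 SARAWT libraries. In macrophages 0 of 9 genes passed in edgeR or DESeq2, 0% of 10436 genes were called by edgeR, and none of the 9 had an unadjusted p under 0.05. The median of the 9 was -0.04 against -0.02 over all genes. H2-Ab1 was 15323 and 7648 CPM in SARATg, at either side of the SARAWT range of 8958 to 13352. In the other 13 classes together, 0 of 78 tests passed, with 0.00877% of all tests called, and 13 had an unadjusted p under 0.05. The share of all tests at that level was not counted over these classes. Without vehicle 3, the thick ascending limb had 4 of 4 genes higher in SARATg, against 0.449% of genes: Cd74 by 3.40 (108 and 126 against 7.69 and 17.3 CPM), H2-Aa by 3.28, H2-Eb1 by 2.89 and H2-Ab1 by 2.78. The summed leukocyte list moved with it, at 448 and 457 CPM in SARATg against 25.6 and 34.6 in vehicle 1 and 2. When thick ascending limb cells with leukocyte RNA were left out, Cd74 was 18.1 and 11.6 CPM in SARATg and 8.80 and 17.04 in vehicle 1 and 2, and the groups overlapped. With vehicle 3, where thick ascending limb Cd74 was 466 CPM, none was called. Proximal tubule Cd74 without vehicle 3 was higher in SARATg by 1.94 ± 0.24 with an edgeR adjusted p of 0.886.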

How the data were processed

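Single-cell 3′ libraries of sorted GFP+ cells were analysed from the raw UMI counts that the authors deposited for every gene and barcode, produced by Cell Ranger (versions 3.0.2, 3.1.0 and 4.0.0 per the file headers, 3.0.2 with mm10 and Seurat 2.3.4 per the submitters' processing notes). The 2 gene lists (31053 and 32286 identifiers, 597 with differing symbols) were joined on 30406 shared identifiers. The filter kept cells in which 200 or more genes were detected and mitochondrial UMIs were no more than 20% (skin) or 50% (kidney), and doublets were removed at 0.8% per 1000 cells by simulated doublet scores. Cells were clustered by tissue with scanpy 1.11.5 (2000 variable genes, 30 components, 20 neighbours, Leiden resolution 1). Clusters were named with at least 3 raised markers. Levels are CPM of UMIs summed per library and class with at least 10 cells.

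Sums were tested with edgeR 4.0.16 (quasi-likelihood F test, two-sided, TMM, Benjamini-Hochberg over all genes tested in a class, threshold 0.05), and DESeq2 1.42.0 was an alternative. The members and gene lists were chosen with earlier results of these data known. Named genes were the 9 members in every class, called genes of the lists (other class II chains, class II enhanceosome, interferon-γ signal, lysosomal processing, surface turnover and costimulation, and RNA of leukocytes, macrophages, B cells and proximal tubule in other cells; at most 4 examples a list and comparison), and the 10 genes most like H2-Ab1. A few further values (Irf1 and Ptprc by library, and classes other than macrophages) were chosen after they were seen. Simulated counts had 200 genes changed by 2 on the log2 scale, up or down. Of these, 76% (skin macrophages, bleomycin), 87% (noncanonical pericytes), 83% (kidney macrophages, aristolochic acid), 61% (proximal tubule), 61.5% (SARATg) and 65.5% (between tissues) were recovered. Of the genes called there, 2.96% to 6.82% had not been changed. Many changes reported above are smaller than the simulated one, and these shares do not apply to them. Same-numbered skin bleomycin and PBS macrophage libraries deviated together (correlations 0.253 to 0.601; -0.523 to 0.401 for different numbers). All 3 being above 0.1, they were taken as paired in the fits with a replicate block, while the main fits were unpaired. The pairing is uncertain, since PBS 1 with bleomycin 2 (0.401) exceeded the same-numbered pairs 1 (0.297) and 2 (0.253). Numbers 1 and 2 also share a Cell Ranger version. Kidney numbers were not taken as paired (-0.251 to 0.265). Intervals cover counting error only. Where groups are said not to overlap, the share of all genes without overlap was not counted, so separation alone does not set a gene apart.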

Additional observations from a re-analysis of the deposited data

How the results depend on the processing

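Of 194 alternative values over 23 results, 165 stayed on the same side or within the spread, 29 moved and 0 reversed. The numbers below count class II genes called. They are given without the share of all genes called in each setting, so they do not show whether class II genes stood out there. In noncanonical pericytes after bleomycin, 0 became 3 with DESeq2, 3 with no filter on low counts and 1 with the replicate block, for which skin numbers were taken as paired, and stayed 0 with the block and without cells holding leukocyte RNA (chosen after seeing the data). In kidney macrophages after aristolochic acid, leaving out 1 library gave 0 to 3, the 3 without vehicle 3, and leaving out the doubted libraries (chosen after seeing the data) gave 6. In proximal tubule, leaving out 1 library gave 0 to 7, the 7 without vehicle 3. Between tissues in macrophages, leaving out 1 library gave 4 to 7 and leaving out the doubted libraries gave 4. In the other skin classes after bleomycin, 0 became 2 with DESeq2, 11 with no filter, 4 with the replicate block, 7 with all libraries in 1 fit and 0 to 1 with 1 library left out. In the other kidney classes after aristolochic acid, 0 became 6 with no filter, 1 with the replicate block, 0 to 12 with 1 library left out and 23 without the doubted libraries. With the SARA transgene in the other classes, 0 became 11 with no filter, 9 with the replicate block and 0 to 5 with 1 library left out. Between tissues in the other classes, 13 became 8 with DESeq2, 6 to 14 with 1 library left out and 7 without the doubted libraries. Without thinning, the Cd74 share was 53.0% in noncanonical pericytes and 37.1% in kidney endothelial cells, against 15% and 20.0%. The block changed no other count by over 1.5 times, and in kidney the replicates share only a number. The causes were not tested. Leaving out cells with shared barcodes gave 6 between tissues in macrophages and 0 in the other main comparisons. Depth limits H2-Oa in proximal tubule cells, with 1 to 11 UMIs a library, and Ciita in skin endothelial cells and canonical pericytes, with none.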
